A study of Mus musculus with 4 samples.

Results

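The nuclei described here were selected on RNA for the genes Adgrl3, Frmd5, Adam23, Dscam and Ccdc192, from liver cells of mice before (D0) and on day 5 (D5) of a bile duct-injuring diet. A nucleus with at least 1000 UMIs (unique molecular identifiers, here counts of single RNA molecules) was selected when it held at least 5 UMIs of these 5 genes in sum. It also had to hold at most 1 UMI of Txk, Ncr1 and Cd3e in sum (NK and T cells), at most 1 of Xcr1 and Clec9a (cDC1), at most 1 of Siglech and Grm8 (pDC) and at most 2 of C1qa, C1qb and C1qc (macrophages). This rule found 425 of 14282 nuclei at D0, or 2.98% (95% exact binomial interval 2.70 to 3.27). At D5 it found 983 of 26633 nuclei, or 3.69% (3.47 to 3.92), which gives 1408 of 40915 nuclei in all. The minimum of 5 UMIs alone was reached by 863 nuclei at D0 and 1436 at D5, of which the 4 exclusions removed 438 and 453.

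RNA and open chromatin (ATAC-seq) were read from the same nuclei by 10x Multiome in C57BL/6J mice. The D0 mice had received no DDC, and the D5 mice had eaten chow with 0.1% DDC (3,5-diethoxycarbonyl-1,4-dihydrocollidine) for 5 days. Live CD45+ CD64- CD11c+ cells were sorted in both groups before nuclei were isolated, so cells without CD45 or CD11c and cells with CD64, which most macrophages carry, were gated out. Male mice of 6 to 12 weeks were used by the methods, the number of mice pooled is not given in the sources used here, and each day is 1 library. Day and library can therefore not be told apart, no test between them was possible, and every interval below is a 95% interval that covers counting error only.

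Conventional dendritic cells (DCs) present antigen to T cells and are divided into a cDC1 branch, which depends on Irf8 and carries Xcr1 and Clec9a, and a cDC2 branch, which carries Sirpa and, in mice, lectins such as Cd209a, Clec10a and Mgl2. When either kind matures it switches on Ccr7, the chemokine receptor that leads it to the lymph node, together with the actin-bundling protein Fscn1 and costimulatory molecules. The selecting genes are better known from neurons. Adgrl3 encodes latrophilin 3, an adhesion G protein-coupled receptor of synapses, Adam23 a membrane protein of the ADAM family without protease activity, Dscam an adhesion molecule of the immunoglobulin family, and Frmd5 a protein with a FERM domain. The question asked of these nuclei was which lineage they belong to, from the RNA and from the ATAC layer that the rule did not use.

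The 5 genes did not mark the nuclei together, so the nuclei are called selected nuclei here and not Adgrl3, Frmd5 and Adam23 positive. UMIs of 1 of the 5 genes alone were found in 73 selected nuclei at D0 and in 184 at D5, while all 5 genes were found in 12 and 13. Adgrl3 had a UMI in 80.7% of the selected nuclei at D0 and in 48.0% at D5, Adam23 in 76.0% and 83.2%, Dscam in 56.0% and 72.5%, Frmd5 in 34.1% and 20.9%, and Ccdc192, a gene of little known function, in 12.7% and 7.02%. In a nucleus the gene with the most UMIs was taken as its leading gene, without scaling for gene length. Adgrl3 led 219 nuclei at D0 (51.5%, 46.7 to 56.4) and 205 at D5 (20.9%, 18.4 to 23.5). Adam23 led 108 at D0 (25.4%, 21.3 to 29.8) and 437 at D5 (44.5%, 41.3 to 47.6). Dscam led 47 (11.1%) and 223 (22.7%), Frmd5 11 and 20 and Ccdc192 0 and 1, and in 40 and 97 nuclei the highest count was tied. The most frequent leading gene was thus Adgrl3 at D0 and Adam23 at D5, a description of the genes that chose the nuclei in 1 library a day. Thinned to 1000 UMIs in every nucleus before the rule, the sets were led by Adgrl3 in 49.6% at D0 and 15.4% at D5 and by Adam23 in 24.8% and 44.1%. Over the selected nuclei, the Pearson correlation of log2(UMIs + 1) of Adgrl3 and Adam23 was -0.44 (n = 425) at D0 and -0.30 (n = 983) at D5. It is a description, since the nuclei of a day share a library and the rule acts on the sum.

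**Figure D1:**
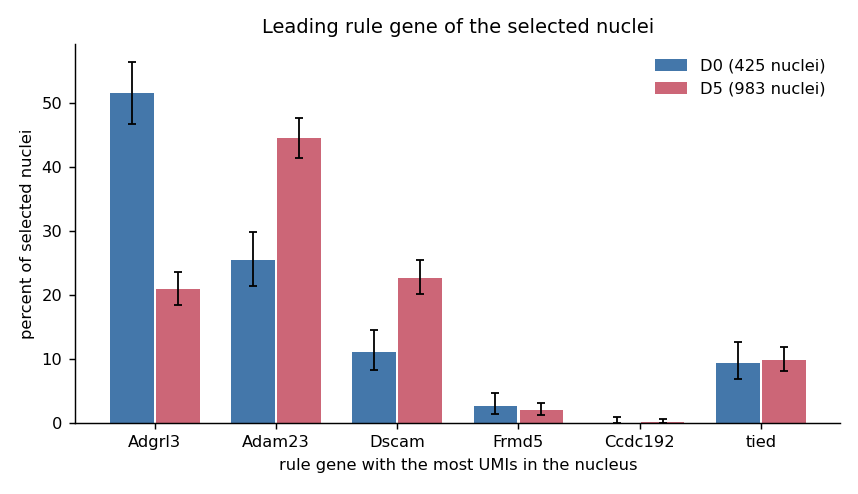
Bars give the percent of selected nuclei (y axis) by the rule gene with the most UMIs (x axis), for 425 nuclei at D0 and 983 at D5, with 95% exact binomial intervals for counting error. Adgrl3 led 51.5% at D0 and 20.9% at D5, Adam23 25.4% and 44.5%.

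The levels of the selecting genes are given without a comparison, because they chose the nuclei. In CPM, the summed UMIs of a gene scaled to the same total in every group, Adgrl3 stood at 1815 in the selected and 76.5 in all other nuclei at D0, and at 465 and 36.7 at D5. Adam23 stood at 1199 and 65.4 CPM at D0 and at 930 and 51.2 CPM at D5. Dscam had 700 and 27.5 CPM at D0 and 593 and 51.7 CPM at D5, Frmd5 334 and 26.6 CPM and then 101 and 10.3 CPM, and Ccdc192 94.0 and 4.52 CPM and then 25.7 and 2.04 CPM. Just outside the minimum, 263 nuclei at D0 and 874 at D5 met the exclusions with 3 or 4 UMIs of the 5 genes. Just inside, 156 and 444 nuclei had 5 or 6. Dnase1l3, which was not part of the rule, stood at 148 CPM outside and 264 CPM inside at D0, and at 35.8 and 49.7 CPM at D5, and reached 327 and 131 CPM in nuclei with 10 or more UMIs. Cd209a, by contrast, stood at 335 CPM outside and 207 CPM inside at D0 and at 326 and 323 CPM at D5. In nuclei with 10 or more UMIs it had 252 and 233 CPM. Ccr7 had 448 CPM outside, 416 inside and 339 at 10 or more UMIs at D0, and 398, 488 and 420 CPM at D5. Flt3 had 247, 295 and 258 CPM at D0 and 332, 364 and 353 CPM at D5. Zbtb46, Clec4a4, Ffar2 and Sirpb1a were higher at 10 or more UMIs than outside on both days.

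The share of nuclei that the rule found moved with depth. Median depth was 1789 UMIs in the selected nuclei of D0 and 2977 in those of D5, beside 1987 and 2860 in the other nuclei. After thinning to 1000 UMIs, 1.61% (1.41 to 1.83) of the nuclei at D0 and 0.706% (0.609 to 0.814) at D5 met the rule, so the order of the days turned and the higher share at D5 is not read as an increase. Over all nuclei, 5 UMIs of the rule genes were reached by 863 of 14282 at D0 and 1436 of 26633 at D5. By gate class, they were reached by 0.799% of cDC1 nuclei at D0 and 0.588% at D5 (medians 2475 and 3501 UMIs, unselected nuclei). The pDC class had 1.56% and 0.747% (1592 and 1775 UMIs) and the NK and T cell class 2.66% and 6.04% (1345 and 1937 UMIs). Of nuclei at several gates, 12.1% and 11.1% reached them (5490 and 5672 UMIs). The 5 UMIs were reached by 4.89% and 3.75% of the cDC2 class, a lower share than over all nuclei. In the Ccr7+ DC class it was 12.5% and 14.6%, a higher share than over all nuclei. At D0, 7 of 39 nuclei of the endothelial gate class (17.9%) reached them as well. A Scrublet doublet score of 0.2 or higher was found in 8.0% of the selected nuclei at D0 and 23.8% at D5, against 23.9% and 25.6% of the others. The libraries shared 591 cell barcodes, among them 18 barcodes selected at D0 and 18 selected at D5, and 1 barcode was selected in both.

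Most selected nuclei fell in no gate class, as did most nuclei of the libraries. The gates are sums of UMIs of 10 small marker sets, and 78.4% of the selected nuclei at D0 and 62.4% at D5 fell in no gate class. These include nuclei that reached a gate but exceeded the limit on another. Over all nuclei with at least 1000 UMIs, 7605 of 14282 at D0 and 15451 of 26633 at D5 fell in no gate class. The cDC2 gate (Cd209a, Clec10a, Mgl2, Ffar2 and Sirpb1a) was reached by 53 nuclei at D0 and 274 at D5 and the Ccr7+ DC gate (Ccr7, Fscn1, Cacnb3, Nudt17 and Il4i1) by 49 and 234. The preDC gate was reached by 2 and 37, the endothelial gate by 8 and 2, the nonclassical monocyte gate by 1 and 8 and the B cell gate by 2 and 1. The 8 nuclei at the endothelial gate at D0 were all led by Adam23. For reaching a gate no count over all nuclei is given, so gate classes are set beside all nuclei instead. The cDC2 class held 10.1% of the selected nuclei at D0 and 16.6% at D5, beside 880 of 14282 and 4342 of 26633 of all nuclei. At D5 the cDC2 share was thus near that over all nuclei. The Ccr7+ DC class held 8.24% and 12.4% of the selected nuclei, beside 279 and 833 of all nuclei.

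The dendritic cell genes Flt3, Zbtb46 and Itgax were present in the selected and in the other nuclei. The lists of stellate, Schwann and mesothelial cells were near 0 in the selected nuclei. Flt3, the receptor for the growth factor of DC development, stood at 251 CPM in the selected and 241 in the other nuclei at D0 and at 356 and 282 CPM at D5. Zbtb46, a transcription factor of conventional DCs, stood at 243 and 111 CPM at D0 and at 153 and 95.9 CPM at D5, and Itgax, which encodes the sorted CD11c, at 337 and 240 CPM and then at 234 and 239 CPM. In sum, the list of stellate cell and fibroblast genes had 2.21 CPM at D0 and 1.30 at D5, the Schwann cell list 2.21 and 0.780 CPM and the mesothelial list 0 and 0.260 CPM. The hepatocyte list summed to 24.3 CPM in the selected and 20.1 in the other nuclei at D0 and to 14.6 and 12.4 CPM at D5, and of it Alb, the albumin gene, had 13.3 CPM in the selected and 11.3 in the other nuclei at D0, and 9.62 and 7.16 CPM at D5. Cd207 (langerin) was at 3.32 CPM at D0, with 2.73 CPM in the other nuclei.

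Against all other nuclei, 4.55% of 7013 genes at D0 and 2.46% of 10121 at D5 were at least 2-fold higher, and 6.79% and 2.42% at least 2-fold lower. By TMM scaling the D0 counts of 319 higher and 476 lower genes became 473 and 342, since TMM moved every log2 ratio of this comparison by 0.21 at D0. These shares are the background for the lists, and as the rule used RNA of the same nuclei, no count over a list is read as support. Of 10 cDC2 genes tested, 4 were at least 2-fold higher at D0 and 3 at D5, and 0 were 2-fold lower. They were Clec4a4, a C-type lectin, the receptor for short-chain fatty acids Ffar2 and the signal-regulatory gene Sirpb1a on both days, and the lectin Clec4a2 at D0. Clec4a4 stood at 43.1 CPM against 2.81 CPM at D0 and 22.1 against 3.6 CPM at D5, though reads of Clec4a4 and Sirpb1a could be split with near-identical family members. Of 9 tested Ccr7+ mature DC genes, 6 were 2-fold higher at D0 (Ccr7, Fscn1, Cacnb3, Il4i1, Relb and Cd274), and 7 of 10 at D5. Costimulation genes were higher in 4 of 8 at D0 (Cd80, Cd86, Cd40 and Cd274) and 3 of 10 at D5 (Cd274, Tnfsf4 and Tnfrsf4). Cd86, a ligand of CD28, stood at 1402 against 507 CPM at D0 and 1090 against 602 CPM at D5.

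Lists of other DC branches were lower, in nuclei from which UMIs of cDC1 and pDC genes had been excluded by the rule. Of 8 tested cDC1 genes, 6 were 2-fold lower at D0 and 5 at D5, among them Irf8, with 211 against 950 CPM and 169 against 532 CPM. Xcr1 and Clec9a, which the rule excluded, are not counted. Of 8 tested pDC genes, 6 and 4 were 2-fold lower, with Tcf4, the defining factor of pDCs, at 368 against 2020 CPM at D0 and 512 against 1103 CPM at D5. The heat shock list, which responds to handling of cells, had 0 of 8 genes 2-fold different on either day and summed to 4810 CPM in the selected and 4698 in the other nuclei at D0 and to 1996 and 2105 CPM at D5.

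Endothelial genes were found in a part of the Adam23-led nuclei at D0. Of 6 tested endothelial genes, 5 were 2-fold higher than in the other nuclei at D0 (Stab2, Clec4g, Ptprb, Kdr and Dnase1l3), and the summed level of the 8 genes of the endothelial cell list was 628 CPM against 226 CPM. By leading gene, it was 1303 CPM in Adam23-led and 399 CPM in Adgrl3-led nuclei at D0. Stab2, the scavenger receptor of liver sinusoidal endothelium, was at 256 CPM in Adam23-led nuclei, and Ptprb, an endothelial receptor phosphatase, at 273 CPM in Adam23-led and 0 in Adgrl3-led and Dscam-led nuclei. At D5, Ptprb was at 13.4 CPM in Adam23-led nuclei. Without the nuclei at the endothelial gate, a choice made after seeing the data, the log2 ratio of Ptprb over cDC2 nuclei turned to -0.41 at D0. Ptprb is itself a gene of that gate (Stab2, Ptprb, Flt1 and Kdr), so a fall was set by the choice and is not read as a result. Dnase1l3, a secreted DNase of both DCs and sinusoidal endothelium, differed from these genes, as it was present under each leading gene. It had 286 CPM in the selected nuclei against 57.9 in the others at D0 and 76.7 against 18.0 CPM at D5, and 253 CPM in Adgrl3-led, 395 in Adam23-led and 229 in Dscam-led nuclei at D0.

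The genes with the most stable excess over the other nuclei, apart from the rule genes, were ranked by the lower bound of their ratio on the less distinct day. Esrrg, an orphan nuclear receptor, led the ranking with 46.5 against 2.19 CPM at D0 (log2 ratio 4.43, 3.85 to 4.95) and 6.76 against 0.413 CPM at D5 (4.05, 3.25 to 4.8). Dkk2, a secreted modulator of Wnt signalling, had 33.2 against 1.78 CPM at D0 and 28.3 against 3.02 CPM at D5. It went with Dscam and not with Adgrl3, at 150 CPM in Dscam-led and 2.16 in Adgrl3-led nuclei at D0 and 63.8 and 1.31 CPM at D5. Ryr3, an intracellular calcium release channel, had log2 ratios of 3.83 and 3.35, Ube2e2, a ubiquitin-conjugating enzyme, 3.14 and 2.32, and Slc12a2, a sodium-potassium-chloride cotransporter, 3.28 and 2.23. Adam22, the relative of Adam23 that also binds LGI proteins, had 80.7 against 20.3 CPM at D0 and 39.8 against 11.0 CPM at D5. Tbc1d4, a Rab GTPase-activating protein, was the most abundant of these genes. It had 2106 against 335 CPM at D0 (2.65, 2.58 to 2.72) and 1764 against 431 CPM at D5 (2.03, 2.00 to 2.07). In Adgrl3-led, Adam23-led and Dscam-led nuclei it stood at 1651, 2538 and 2742 CPM at D0, against 313 CPM in cDC2 and 2136 CPM in Ccr7+ DC nuclei. Of these genes, Esrrg and Slc12a2 were low in the Ccr7+ DC class on both days, while Tbc1d4, Dkk2 and Mreg, a protein of organelle transport, were at or above the level of the selected nuclei there.

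By whole RNA profile, the selected nuclei were closest to cDC2 among the gated classes. Across 8437 genes at D0, without rule, exclusion and gate genes, the Pearson correlation of log2(CPM + 10) was 0.932 with the cDC2 class and at D5 it was 0.969. With the Ccr7+ DC class it was 0.864 and 0.936, with cDC1 0.883 and 0.911, with pDC 0.819 and 0.844, with NK and T cells 0.832 and 0.843, with macrophages 0.827 and 0.887 and with the 32 endothelial nuclei 0.550 at D0. With the preDC class (64 nuclei at D0 and 249 at D5) it was 0.811 and 0.918, at D5 above cDC1. The correlation with all other nuclei as 1 group was 0.929 and 0.976, as high as with cDC2. The Adam23-led nuclei were about as close to Ccr7+ DC as to cDC2, at 0.858 and 0.876 at D0 and 0.940 and 0.961 at D5, and the Adgrl3-led nuclei less so, at 0.822 and 0.929 and then 0.891 and 0.961. Genes are not independent replicates and shared depth and base composition enter these values, so they are descriptions.

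Set against the cDC2 class itself (837 nuclei at D0 and 4179 at D5), 7.85% of 6596 genes at D0 and 5.19% of 9967 at D5 were at least 2-fold higher, and 2.65% and 0.732% lower. TMM scaling turned the split at D0 from 518 higher and 175 lower genes to 329 and 394. The number of lower genes also rose on both days with a doubled gate minimum. At D5 it rose by TMM scaling and without nuclei of high doublet score as well. Of the Ccr7+ mature DC list, 6 of 9 tested genes were higher at D0 and 9 of 10 at D5, but the cDC2 class was cleared of nuclei with more than 1 UMI of the Ccr7+ DC gate and the selected nuclei were not. With both held to that limit, a choice made after seeing the data that kept 350 selected nuclei at D0 and 614 at D5 and 328 higher genes in place of 517 at D5, 1 of the 4 tested list genes outside the gate was 2-fold higher on each day. It was Cd274, which encodes PD-L1, at 241 against 109 CPM at D0 (log2 ratio 1.14, 0.84 to 1.44) and 106 against 37.3 CPM at D5 (1.5, 1.27 to 1.72), while Ccl22, a chemokine of mature DCs, was lower at D0, at 58.1 against 163 CPM. Over all selected nuclei, Ccr7 had 382 CPM in the selected and 30.9 in cDC2 nuclei at D0, and 481 and 26.6 CPM at D5, while the Ccr7+ DC class, which was gated on it, had 3087 and 2557 CPM. By leading gene, Ccr7 stood at 130 CPM in Adgrl3-led, 811 in Adam23-led and 548 in Dscam-led nuclei at D0 and at 146, 584 and 644 CPM at D5. Fscn1 had 43.2, 332 and 120 CPM at D0 and 56.2, 162 and 133 CPM at D5, and the whole Ccr7+ mature DC list of 10 genes summed to 1319, 3627 and 2653 CPM at D0 and to 1169, 2634 and 2504 CPM at D5, lowest in the Adgrl3-led nuclei on both days. The cDC2 lectins Cd209a, Clec10a and Mgl2 were lower than in the cDC2 class, which was gated on them, with Cd209a at 234 against 1248 CPM at D0 and 277 against 858 CPM at D5. Genes outside the gates were lower too, among them Tnip3, an inhibitor of NFkB signalling (515 against 1856 CPM at D0, 319 against 792 CPM at D5), Ccr2, the receptor by which monocyte-derived and precursor cells enter tissue (146 against 407 CPM, 232 against 484 CPM) and Ahnak, a large scaffold protein (258 against 837 CPM, 328 against 652 CPM).

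**Figure D2:**
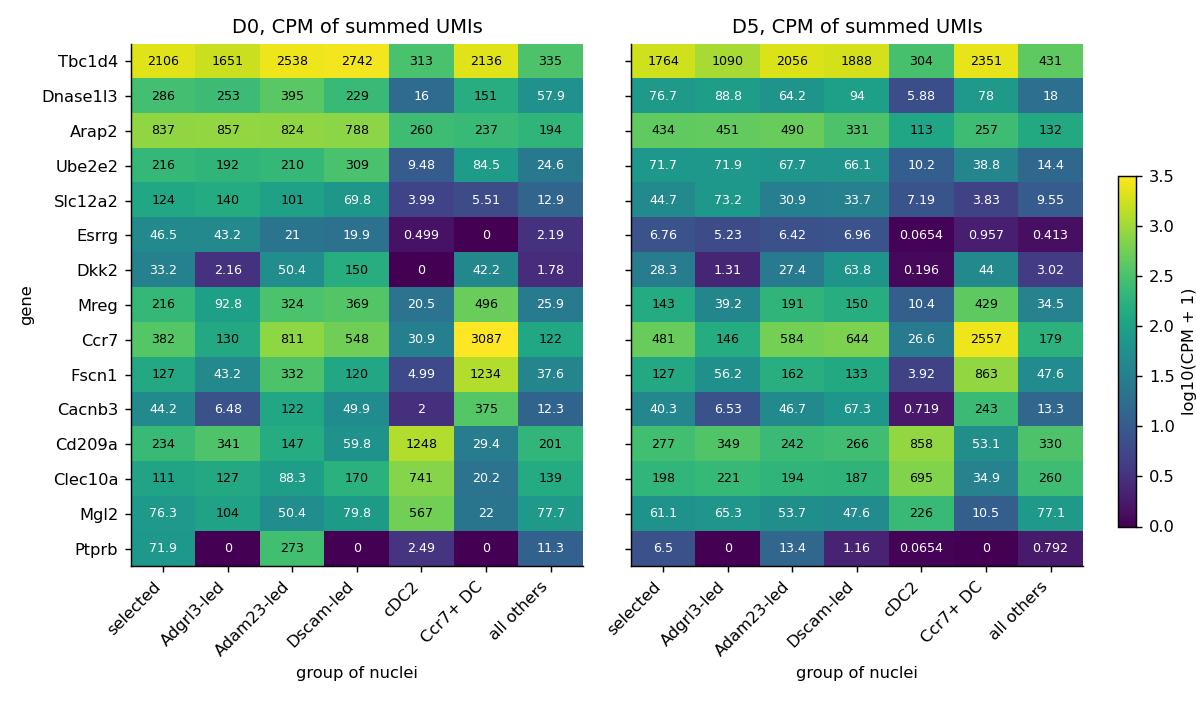
Each cell gives the CPM of summed UMIs of a gene (rows) in a group of nuclei (columns), with colour as log10(CPM + 1), D0 at the left and D5 at the right. Tbc1d4, Dnase1l3, Arap2 and Ube2e2 are high under every leading gene, Ccr7, Fscn1 and Cacnb3 are highest in Ccr7+ DC and lowest among the selected in Adgrl3-led nuclei, and Ptprb is near 0 outside Adam23-led nuclei.

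The ATAC layer, which the rule did not use, placed more selected nuclei with cDC2 than with any other class, in a set from which the rule had removed nuclei with RNA of cDC1, pDC, NK and T cells and macrophages. Each nucleus with at least 1000 peak counts was assigned to the reference class whose accessibility profile gave it the highest likelihood, with profiles learned on other nuclei. Of 389 selected nuclei at D0, 339 went to cDC2 (87.1%, 83.4 to 90.3) and 12 to Ccr7+ DC (3.08%). With equal reference class sizes, added after seeing the data, these shares at D0 were 49.6% and 10.8%, and by a vote of the nearest reference nuclei 65.8% and 18.3%. The profiles of equal size rested on only 14 nuclei per class and fold at D0 and 110 at D5. Of 914 at D5, 764 went to cDC2 (83.6%, 81.0 to 85.9) and 103 to Ccr7+ DC (11.3%, 9.29 to 13.5). The cDC1 class received 3.86% and 0.985%, NK and T cells 4.37% and 2.84% and pDC 1.29% and 1.20%, and 1 nucleus went to the endothelial class at D0. Of all other nuclei, 26.8% at D0 and 58.9% at D5 went to cDC2, and of the 4964 and 14682 other nuclei that met the same 4 exclusions, a group added after seeing the data, 57.2% (55.8 to 58.6) and 77.1% (76.4 to 77.8). Among nuclei in no gate class, 90.2% of 307 selected nuclei at D0 and 88.5% of 573 at D5 went to cDC2, against 52.0% and 73.0% of the unselected ones within the exclusions.

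Leading genes differed in this readout. Adgrl3-led nuclei went to cDC2 in 92.6% at D0 and 93.8% at D5 and to Ccr7+ DC in 0% and 1.56%. Adam23-led nuclei went to cDC2 in 75.5% and 81.3% and to Ccr7+ DC in 10.2% and 16%. Dscam-led nuclei went to cDC2 in 85% and 78.7% and to Ccr7+ DC in 0% and 12.8%. With equal reference class sizes, Ccr7+ DC received 3.92% and 6.77% of Adgrl3-led, 22.4% and 24.9% of Adam23-led and 12.5% and 23.7% of Dscam-led nuclei. The cDC2 class then received 53.9% (46.8 to 60.9) of Adgrl3-led and 45.9% (35.8 to 56.3) of Adam23-led nuclei at D0, with intervals that overlap, and pDC 25.5% and 13.3%, and at D5 cDC2 received 80.7% and 67.3%. Of 40 Dscam-led nuclei at D0, 14 then went to cDC2, 10 to pDC and 8 to NK and T cells. At D5, cDC2 received 64.0% of Dscam-led nuclei. NK and T cells received 7.58% of them, against 2.08% of Adgrl3-led and 0.748% of Adam23-led nuclei. Selected nuclei that the RNA placed in the Ccr7+ DC gate class were assigned there in 34.5% (10 of 29) at D0 and 60.2% (65 of 108) at D5.

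The assignment to cDC2 was broad and has to be read against its own error. Reference nuclei of the cDC2 class returned to it in 93.1% at D0 and 97.5% at D5, but nuclei of the Ccr7+ DC class went there in 37.1% and 28.4% and macrophage nuclei in 94.3% and 82.1%, so cDC2 and macrophages were not separated by it. Of 29 endothelial reference nuclei at D0, 1 returned to its class and 19 went to NK and T cells, so it could hardly call endothelium. By RNA, the macrophage list of 10 genes, of which C1qa, C1qb and C1qc were limited by the rule, summed to 230 CPM in the selected, 208 in the other and 224 in cDC2 nuclei at D0 and to 174, 262 and 186 CPM at D5. Of its Kupffer cell genes, Clec4f, Vsig4 and Cd5l had 0 UMIs at D0 and 2, 1 and 0 at D5, while Adgre1, which encodes F4/80, had 107 and 167 UMIs (118 and 43.4 CPM, against 24.6 and 14.5 CPM in the other nuclei). pDC, cDC1 and NK and T cell nuclei returned to their own class in 92.9% to 97.9%. Of the preDC class, 0 of 56 returned at D0, where 76.8% went to pDC, and 36.4% of 228 at D5, where as many went to cDC2, so preDC could not be called at D0. A vote of the 15 nearest reference nuclei gave cDC2 in 65.8% and 71.6% and Ccr7+ DC in 18.3% and 22.0% of the selected nuclei, with 8 nuclei (2.06%) given to endothelium at D0. With the same number of reference nuclei for every class, cDC2 received 49.6% and 69.5%, and pDC 21.6% at D0. Reference cDC2 then returned in 58.6% and 90.9%, cDC1 in 72.5% and 96.2% and macrophages in 65.5% and 84.7%. Macrophages received 7.20% and 1.53% of the selected nuclei, and 10.8% and 6.25% of the Adgrl3-led nuclei.

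**Figure D3:**
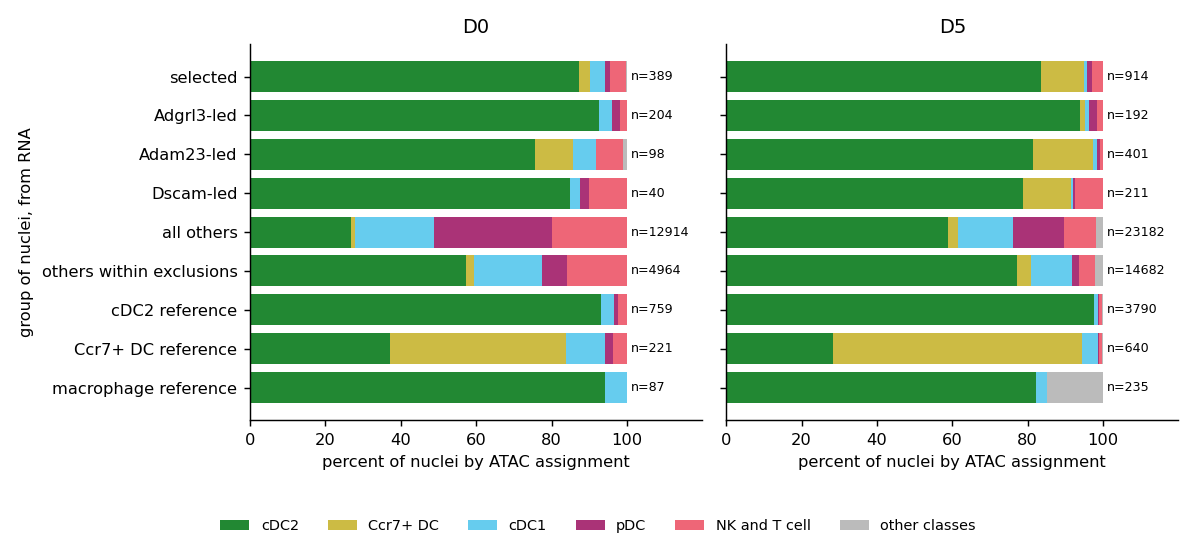
Horizontal bars divide each group of nuclei (y axis) by the class to which its ATAC profile was assigned (percent of nuclei, x axis), at D0 and D5, with the number of nuclei at the right of each bar. The selected nuclei went to cDC2 in 87.1% and 83.6%, against 26.8% and 58.9% of all others and 57.2% and 77.1% of the others that met the rule's exclusions, and with equal reference class sizes in 49.6% and 69.5%.

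Selected nuclei also lay near each other by accessibility. Among the 15 nearest nuclei of a selected nucleus in a space built from peak counts of both libraries, 40.7% at D0 and 23.3% at D5 were selected nuclei, against 3.48% of all nuclei in that space. All nuclei include those that the rule excluded for RNA of NK and T cells, cDC1, pDC or macrophages. The excess over that share, and the low pDC share below, were thus in part set by the rule. Neighbours came from the same library in 52.4% and 88.2% of cases, where that library held 35.6% and 64.4% of the nuclei. Ccr7+ DC gate nuclei were 8.40% and 11.9% of the neighbours against 2.67% of all nuclei, cDC2 gate nuclei 12.4% and 15.6% against 12.7%, and pDC gate nuclei 0.531% and 0.423% against 6.44%. Endothelial gate nuclei were 1.80% of the neighbours at D0 against 0.0989% of all nuclei, and 7.14% for Adam23-led nuclei at D0. Nuclei led by one gene had neighbours led by another as well as by their own. At D0, Adgrl3-led nuclei had 18.4% Adgrl3-led and 9.74% Adam23-led neighbours and Adam23-led nuclei 12.4% and 13.7%, and at D5 these were 9.55% and 8.99% and then 4.29% and 11.4%, where Adgrl3-led and Adam23-led nuclei were 1.06% and 1.33% of all nuclei. Over both days, Ccr7+ DC gate nuclei were 2.78% of the neighbours of Adgrl3-led, 15.8% of those of Adam23-led and 15.1% of those of Dscam-led nuclei.

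The selected nuclei differed in how many selected neighbours they had, and those with many are described as lying inside a patch of the accessibility space. At D0, 173 of 389 (44.5%, 39.5 to 49.6) had at least 8 selected nuclei among their 15 neighbours, 115 (29.6%) had 2 to 7 and 101 (26%) had 1 or none. At D5 these were 135 of 914 (14.8%, 12.5 to 17.2), 448 (49.0%) and 331 (36.2%), so the middle group was the largest at D5. The number of 8 was chosen after the neighbour counts were seen. By leading gene, 44.6% of Adgrl3-led, 38.8% of Adam23-led and 40% of Dscam-led nuclei lay inside at D0, and 22.4%, 11.2% and 9.95% at D5. Nuclei inside were assigned to cDC2 in 98.8% at D0 and 92.6% at D5, the middle group in 87.0% and 82.4% and those with 1 or none in 67.3% and 81.6%. To Ccr7+ DC went 1.16% and 7.41% inside, 2.61% and 17.4% of the middle group and 6.93% and 4.53% of those with 1 or none. Nuclei inside were also shallower than those with 1 or none, with medians of 1538 and 2196 UMIs against 2337 and 4064, and the part of depth in this split was not tested.

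The genes given next for the selected nuclei inside the patch and those with 1 or no selected neighbour, called outside, were picked after their values were seen. By whole lists, the costimulation and checkpoint genes summed to 3370 CPM inside and 2347 outside at D0 and to 2751 and 2042 CPM at D5. Nearly all of that difference lay in Cd86, a gene of the list given below, and the rest of the list hardly differed. The cDC2 genes summed to 1313 and 1403 CPM and then 1343 and 1270 CPM. Cd209a stood at 94.8 CPM inside and 349 outside at D0 and at 142 and 350 CPM at D5, Clec10a at 35.1 and 137 CPM and then 65.1 and 219 CPM, and Tnip3 at 91.3 and 1025 CPM and then 73.9 and 383 CPM. Ccr2 stood at 52.7 and 226 CPM at D0 and Ahnak at 59.7 and 446 CPM. Cd86 was higher inside, with 1966 against 939 CPM at D0 and 1612 against 924 CPM at D5, as were Ffar2 (207 against 59.4 CPM, 245 against 76.2 CPM), Clec4a4 (77.2 against 7.43 CPM, 47.3 against 14.5 CPM) and Esrrg (112 against 18.6 CPM, 41.4 against 1.97 CPM). Ccr7 did not follow, with 288 against 460 CPM at D0 and 390 against 328 CPM at D5, nor did Flt3, with 267 against 256 CPM at D0 and 269 against 331 CPM at D5. Stab2 was at 0 inside on both days, and Ptprb at 3.51 CPM inside and 59.4 outside at D0.

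The same genes could be read in nuclei that the rule had not selected. At D0, 72 of 12914 unselected nuclei (0.558%) lay inside, with at least 8 selected neighbours, and at D5 74 of 23182 (0.319%). They include nuclei with fewer than 5 UMIs of the rule genes and nuclei that the exclusions removed. Their accessibility, not their RNA, placed them there, though the patch itself is made of nuclei selected on RNA. They are set beside unselected nuclei with 1 or no selected neighbour (12322 and 21210 nuclei). These groups differed in class, since ATAC assigned 95.8% and 81.1% of the nuclei inside to cDC2 but 24.1% and 56.3% of the others. The rule genes are given as values only, since the rule limited them in both groups, with Adam23 at 549 and 59.1 CPM at D0 and 645 and 39.9 CPM at D5, Adgrl3 at 662 and 68.2 CPM and then 283 and 32.5 CPM, and Dscam at 339 and 25.2 CPM and then 283 and 44.2 CPM. Tbc1d4 stood at 2891 against 303 CPM at D0 (3.26, 3.10 to 3.41) and 2486 against 357 CPM at D5 (2.80, 2.66 to 2.93), and Ube2e2 at 299 against 22.2 CPM and 131 against 12.9 CPM. Dnase1l3 had 331 against 54.8 CPM at D0 and 110 against 16.4 CPM at D5.

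Further genes that ranked high in these unselected nuclei were Plxnc1, a semaphorin receptor (921 against 151 CPM at D0, 645 against 127 CPM at D5), Il1r2, the decoy receptor for interleukin 1 (2988 against 356 CPM, 1600 against 583 CPM), Ptgs2, which encodes cyclooxygenase 2 (622 against 92.5 CPM, 346 against 112 CPM), Malt1, a paracaspase of NFkB signalling (2786 against 627 CPM, 1605 against 541 CPM), and Rel, an NFkB subunit (2721 against 1016 CPM, 2187 against 889 CPM). Cd86 had 2148 against 491 CPM at D0 and 1238 against 577 CPM at D5, and Clec4a4 32.3 against 2.43 CPM and 31.5 against 2.94 CPM. Cd209a had 96.9 against 194 CPM and 189 against 334 CPM, and Tnip3 24.2 against 419 CPM and 47.2 against 414 CPM. Of the maturation genes, only Ccr7 and Fscn1 are given here. Ccr7 was higher inside on both days, with 307 against 110 CPM at D0 and 1023 against 151 CPM at D5. Fscn1 had 32.3 against 32.9 CPM at D0, on few UMIs inside, and 226 against 38.7 CPM at D5. In the ATAC assignment 1.39% of these nuclei went to Ccr7+ DC at D0 and 18.9% at D5.

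Within unselected nuclei assigned to cDC2 by ATAC, a limit added after seeing the data, 69 nuclei inside at D0 and 60 at D5 were set beside 2971 and 11940 with 1 or no selected neighbour. Tbc1d4 had 2979 against 345 CPM at D0 and 2081 against 369 CPM at D5, Dnase1l3 355 against 36.8 CPM and 112 against 12.0 CPM, and Plxnc1 929 against 161 CPM and 586 against 127 CPM. The differences of Il1r2, Ptgs2, Malt1, Rel and Cd86 were smaller than without the limit. Ptgs2 had 683 against 224 CPM (log2 ratio 1.63 at D0) and 362 against 153 CPM (1.27 at D5). Il1r2 had 3243 against 746 CPM (log2 ratio 2.12 at D0) and 1824 against 805 CPM (1.18 at D5), Malt1 2779 against 1002 CPM and 1660 against 647 CPM, Rel 2824 against 1568 CPM and 1949 against 975 CPM, and Cd86 2186 against 790 CPM and 1304 against 677 CPM. Of these, Rel at D0 (0.85) and Cd86 at D5 (0.95) were below 2-fold. Those of Tnip3 and Cd209a were larger. Tnip3 had 18.2 against 1176 CPM and 39.5 against 590 CPM, on 2 and 6 UMIs inside, and Cd209a 109 against 485 CPM and 204 against 452 CPM. Ccr7 had 292 against 157 CPM at D0 and 533 against 123 CPM at D5. Fscn1 had 4 UMIs inside at D0 and 14 at D5, both below the minimum for a call. Its intervals on the days overlapped (log2 ratio 0.81, -1.40 to 1.87 at D0, and 2.18, 1.21 to 2.84 at D5).

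**Figure D4:**
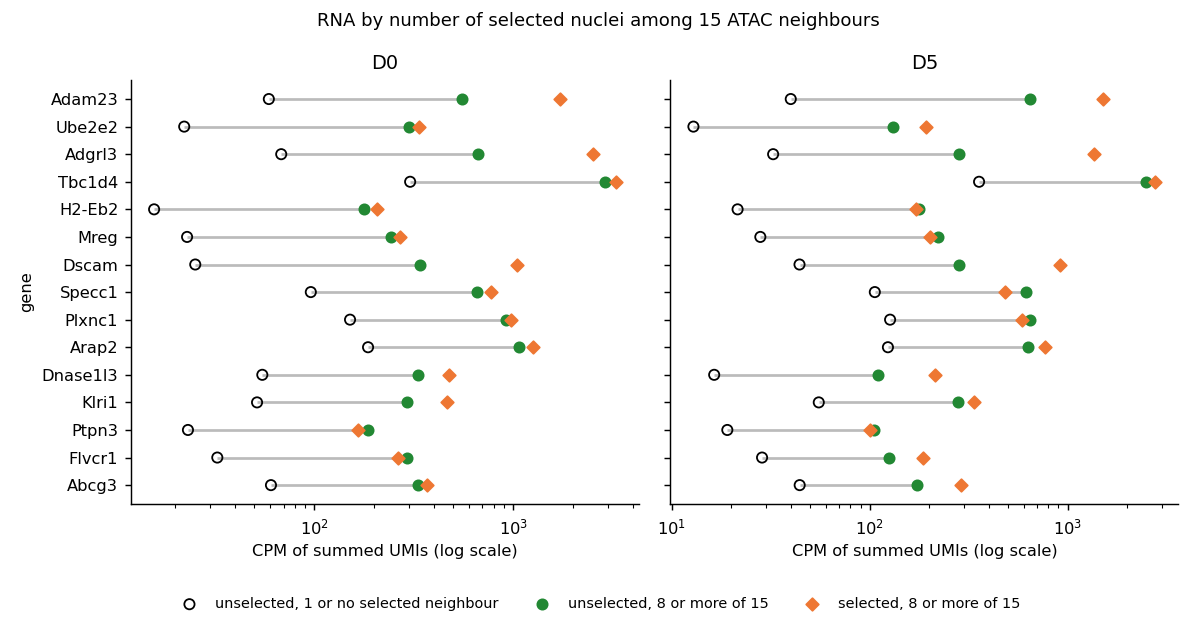
Points give the CPM of summed UMIs on a log axis (x axis) of 15 genes (y axis) in unselected nuclei with at least 8 selected nuclei among 15 ATAC neighbours, in unselected nuclei with 1 or none, and in selected nuclei with at least 8. The genes were chosen for being higher in the first group than in the second, for example Tbc1d4 with 2891 against 303 CPM at D0. They include the rule genes Adam23, Adgrl3 and Dscam, which chose the selected nuclei and are values only.

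Regions of open chromatin at the selecting genes were more accessible in the selected nuclei than in all others pooled, though not always than in each class. In CPM of the fragments in shared peaks, the peak over the Adam23 promoter (chr1:63445549-63446383) had 20.8 in the selected and 4.08 in the other nuclei at D0 (log2 ratio 2.39, 1.87 to 2.82) and 13.4 and 3.71 at D5 (1.88, 1.45 to 2.24). It was at 21.4 in Adgrl3-led, 23.2 in Adam23-led and, on very few fragments, 4.58 in Dscam-led nuclei at D0. At D5 it was at 14.4, 15.6 and 12.6. It was thus open in the Adgrl3-led nuclei as well. In cDC2 nuclei it was at 3.36 and 2.96 and in Ccr7+ DC nuclei at 8.51 and 9.75. A second region, within the gene (chr1:63566803-63567720), had 8.25 against 1.06 at D0 and 6.29 against 1.33 at D5. The Frmd5 promoter peak (chr2:121806650-121807514) had 37.3 against 19.9 at D0 (0.91, 0.54 to 1.23) and 23.7 against 14.2 at D5 (0.75, 0.44 to 1.01), and a region within the gene (chr2:121788482-121789329) 31.3 against 4.18 (2.91, 2.48 to 3.28) and 19.4 against 4.88 (2.00, 1.65 to 2.31). The Dscam promoter peak (chr16:97170130-97171057) had 9.50 against 3.95 at D0 and 7.03 against 4.29 at D5. For Adgrl3, the region with the most fragments of those listed (chr5:81019404-81020301) had 17.0 against 4.16 at D0 (2.07, 1.48 to 2.54) and 7.25 against 3.48 at D5 (1.09, 0.50 to 1.56), and for Dnase1l3 a region within the gene (chr14:7971722-7972631) 29.0 against 11.1 and 27.0 against 14.5. The Dnase1l3 region was higher still in Ccr7+ DC nuclei, at 41.1 and 37.6, and over all regions of the gene Dnase1l3 had 108 and 87.4 in the selected, 123 and 117 in Ccr7+ DC, 110 and 112 in pDC and 72.9 and 64.1 in cDC2 nuclei. Over all regions of Frmd5, the selected nuclei had 139 at D0 and 79.7 at D5, pDC nuclei 71.0 and 82.5 and cDC1 nuclei 99.0 and 74.7.

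The promoters of the 3 rule genes that lie under a peak are shown because these are the stretches whose accessibility is given above. The sequences are those of RefSeq for GRCm38.p6, from 250 bases before to 50 after the start, written 5′ to 3′ on the strand of the gene. Adam23 is at chr1:63445641-63445940 (plus strand), Frmd5 at chr2:121807008-121807307 (minus strand) and Dscam at chr16:97170686-97170985 (minus strand). Capitals mark matches to the GC box, GGGCGG, or its reverse complement CCGCCC.
Adam23: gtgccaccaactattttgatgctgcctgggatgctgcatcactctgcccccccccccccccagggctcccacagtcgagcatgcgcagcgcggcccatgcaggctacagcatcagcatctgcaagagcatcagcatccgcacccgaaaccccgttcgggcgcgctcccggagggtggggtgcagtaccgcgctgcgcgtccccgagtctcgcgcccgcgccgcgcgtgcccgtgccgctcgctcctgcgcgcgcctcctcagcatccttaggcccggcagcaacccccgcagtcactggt
Frmd5: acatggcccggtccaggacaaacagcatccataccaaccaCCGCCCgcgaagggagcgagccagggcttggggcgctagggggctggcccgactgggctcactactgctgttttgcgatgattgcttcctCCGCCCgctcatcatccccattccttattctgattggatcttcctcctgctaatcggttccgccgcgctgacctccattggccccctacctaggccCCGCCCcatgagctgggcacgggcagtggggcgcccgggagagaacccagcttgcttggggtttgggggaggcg
Dscam: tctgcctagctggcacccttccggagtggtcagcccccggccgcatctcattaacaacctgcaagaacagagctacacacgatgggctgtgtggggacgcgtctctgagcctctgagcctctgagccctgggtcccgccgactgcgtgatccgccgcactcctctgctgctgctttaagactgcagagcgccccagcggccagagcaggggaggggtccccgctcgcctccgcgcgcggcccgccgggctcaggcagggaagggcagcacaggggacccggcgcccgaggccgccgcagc
These promoters were rich in CpG, with 31, 19 and 26 CpG dinucleotides against a median of 7 over 32851 promoters of the same length, and with a GC content of 70.0%, 64.3% and 70.0% against a median of 52.7%. The GC box, found in 35.7% of all promoters, matched 3 times in Frmd5 and not in Adam23 or Dscam. The E-box CANNTG, found in 72.3%, matched 1 time in Adam23. The letters TGANTCA (AP-1, 7.81% of promoters) and TATAAA (13.6%) were not in these windows, on either strand. The promoters of Adgrl3 in this source overlapped no shared peak.

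**Figure D5:**
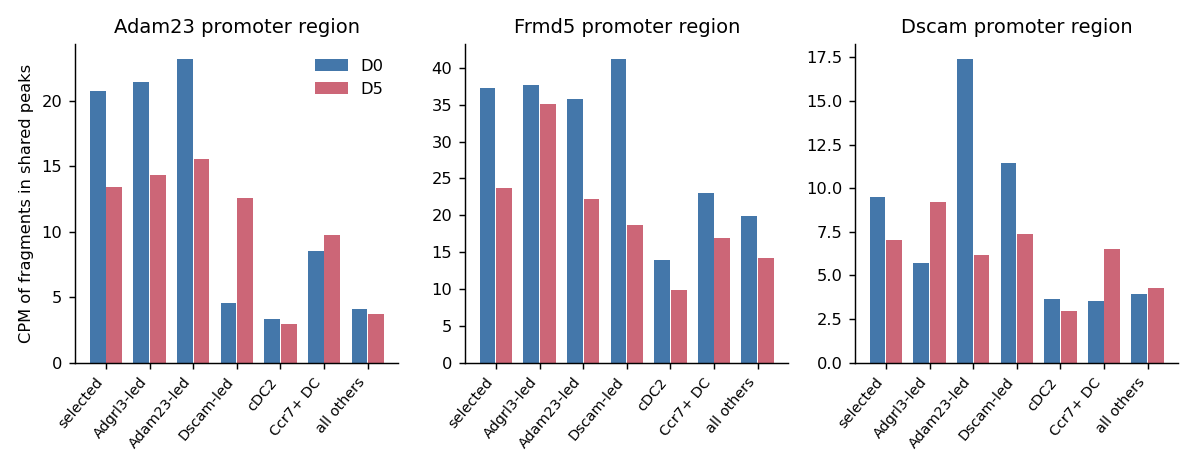
Bars give the CPM of fragments in shared peaks (y axis) in the peaks over the Adam23, Frmd5 and Dscam promoters by group of nuclei (x axis), at D0 and D5, drawn without intervals. The Adam23 peak was at 20.8 and 13.4 in the selected nuclei and at 4.08 and 3.71 in all others. Its bar for Dscam-led nuclei at D0 rests on very few fragments.

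Beyond the selecting genes, 6.75% of 28490 shared regions at D0 and 2.15% of 51478 at D5 were at least 2-fold more accessible in the selected than in all other nuclei, and 4.32% and 2.57% less. On both days together, 243 of 28463 regions were 2-fold higher than in the others and 213 of 28377 higher than in cDC2 nuclei. Against cDC2, 3.19% of the regions at D0 and 3.22% at D5 were higher, and 3.14% and 0.938% lower. Regions were ranked by the lower bound of the ratio on the less distinct day. The first (chr6:95554735-95555620, nearest start site Suclg2 at 150663 bases) had 10.0 against 0.568 CPM at D0 (4.18, 3.32 to 4.90) and 4.69 against 0.398 at D5 (3.59, 2.75 to 4.33). A region 15404 bases from Kcng3 (chr17:83616023-83616959) had 16 against 1.01 and 13.6 against 1.83, and a region 6714 bases from Zfp870 (chr17:32895119-32896034) 25.5 against 1.56 and 11.1 against 1.83. These regions were open under more than 1 leading gene. The last was at 23.3 in Adgrl3-led, 32.9 in Adam23-led and, on few fragments, 22.9 in Dscam-led nuclei at D0. Several of the ranked regions were shared with mature DCs. A region 964 bases from Rufy3 (chr5:88572984-88573921) had 18.0 in the selected and 17.0 in Ccr7+ DC nuclei at D0 and 14.1 and 21.5 at D5, with 1.96 and 1.63 in cDC2. Others were lower in them. A region 14852 bases from Dtx1, a regulator of Notch signalling (chr5:120696620-120697529), had 21.0 at D0 and 11.9 at D5 in the selected nuclei, against 4.01 and 2.44 in Ccr7+ DC, 1.12 and 1.05 in cDC2 and 8.06 and 9.18 in NK and T cell nuclei.

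At start sites of the marker lists, few windows differed. A window took the shared regions within 2 kb of the start sites in the files, from the first to the last annotated start, so those of Adgrl3 and Frmd5 held 12 and 16 regions. Over all genes 1.02% of 14233 windows at D0 and 0.433% of 15922 at D5 were at least 2-fold higher in the selected nuclei, and 1.80% and 0.766% lower. Of the 269 list genes with a region, 11 were higher and 8 lower at D0, and 2 and 4 at D5. Without genes of the rule and its exclusions, 255 genes were left, 8 of 189 tested were higher and 6 lower at D0, and 1 and 4 of 222 at D5. Among those higher at D0 were the windows of Adgrl3, Frmd5, Adam23, Clec4a4, Sirpa, Sirpb1a, Ccr7, Adgre1, Cd80 and Adam11, and higher at D5 were those of Adam23 and Hdc. Of the cDC2 list, 3 of 7 tested windows were higher at D0 with a median log2 ratio of 0.98, and 0 of 10 at D5 with a median of -0.03. Of the macrophage list, 1 of 4 was higher at D0 with a median of 0.46, and 0 of 7 at D5 with a median of 0.24. Sirpa, the surface marker of cDC2, had 53.0 against 23.3 CPM at D0 (log2 ratio 1.20, 0.89 to 1.47) and 49.9 against 35.0 at D5 (0.52, 0.31 to 0.70). Ccr7 had 31 against 14.3 at D0 and 30.7 against 18.5 at D5, and Cd80 63.0 against 30.9 and 69.3 against 47.8. With windows of 10 kb, more list genes were 2-fold lower than higher at D0, so the balance of the counts turned. Sirpa, Ccr7 and Cd80 were then no longer 2-fold higher at D0, while Fscn1 was and Mgl2, a cDC2 lectin, was 2-fold lower. Siglech, a pDC gene, and Clec9a, a cDC1 receptor, were both limited in RNA by the rule, and their windows are values only. Siglech had 3.00 and 12.6 at D0 and 6.39 and 12.0 at D5, and Clec9a 16 and 31.9 and then 23.0 and 31.2.

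Between the days, 2.84% of 10693 genes were at least 2-fold higher in the selected nuclei at D5 and 11.9% lower, relative to a median log2 ratio of -0.20. By TMM scaling, which moved all ratios by 0.28, the 304 higher and 1274 lower genes became 738 and 832, so the excess of lower genes depended on the scaling. The makeup by leading gene also differed between the days. Heat shock genes were lower at D5, with 4 of 8 at least 2-fold lower and a median log2 ratio of -1.52, beside -1.54 in the other nuclei and -1.39 in cDC2 nuclei. Endothelial genes were lower in 6 of 7, with a median of -2.20 against -1.43 in the other nuclei. Adgrf5, Wwtr1, Lama4, Cldn5 and Pdgfd, which had 19, 14, 12, 12 and 11 UMIs at D0, had 0 at D5, and at D0 their levels were 46.2 to 79.8 CPM in Adam23-led and 0 in Adgrl3-led nuclei.

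Some genes moved in the selected nuclei and in the cDC2 nuclei. Ifitm1, an interferon-induced membrane protein, had 105 CPM at D0 and 590 at D5 in the selected and 40.4 and 664 CPM in cDC2 nuclei. S100a4, a calcium-binding protein, had 995 and 2557 CPM and in cDC2 1312 and 2931 CPM, and Cyp7b1, an oxysterol hydroxylase, 3.32 and 82.1 CPM and in cDC2 2.00 and 33.5 CPM. Retnla, given for the selected nuclei only, stood at 29.9 CPM at D0 and rested on 1 UMI at D5. Other genes higher at D5 are given beside Ccr7+ DC nuclei. Il12b, the shared subunit of interleukins 12 and 23, had 24.3 CPM at D0 and 52.8 at D5 in the selected, 13 and 3.99 CPM in cDC2 and 639 and 676 CPM in Ccr7+ DC nuclei. Tnfsf4, the costimulatory OX40 ligand, had 4 UMIs (4.42 CPM) at D0 and 100 UMIs (26 CPM) at D5, with 12.9 and 31.6 CPM in Ccr7+ DC nuclei. Aire had 0 UMIs at D0 and 23 at D5 (5.98 CPM), with 7.35 and 6.22 CPM in Ccr7+ DC nuclei. Bmper, a regulator of BMP signalling, had 0 UMIs at D0 and 44 at D5 (11.4 CPM), with 3.67 and 20.1 CPM in Ccr7+ DC and 0.0654 CPM in cDC2 nuclei at D5. Dnase1l3 was lower at D5 with a log2 ratio of -1.90 (-2.15 to -1.66), and had -1.47 in cDC2 and -1.68 in all other nuclei.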

How the data were processed

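RNA and ATAC layers of 2 libraries (D0 and D5, 1 each) were analysed. The authors deposited raw counts made with Cell Ranger ARC 2.0.2 on mm10 (submitters' processing notes), that is UMIs per gene and counts per peak, with peaks called per library. Of the peak entries, 70.4% and 75.1% equalled 2, so peak counts were halved and called fragments. The called barcodes numbered 16260 and 27873, with 44496348 and 94374499 UMIs, and barcodes with at least 1000 UMIs were kept. Doublets were scored (Scrublet in scanpy 1.11.5) but not removed, and left out in an alternative. The D5 joint matrix came without barcodes here, so a barcode's layers were matched by their equal gene counts, which worked for all called barcodes. Overlapping peaks (1 base) formed 127216 shared regions.

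UMIs and fragments were summed per group of nuclei and scaled to CPM by their totals. With 1 library per day no statistical test was run. Ratios (pseudocount of 1 UMI) carry exact conditional intervals, shares Clopper-Pearson intervals and levels exact Poisson intervals (counting error only). A feature was called when at least 2-fold different, with at least 20 UMIs or fragments found or expected in the selected nuclei. TMM factors came from edgeR 4.0.16. Reference classes needed a minimum UMI sum of their gate and no other gate above its low limit. Accessibility was assigned by multinomial likelihood in 2 folds, and neighbours were found in a latent semantic space of 30 components. Scripts were tested on simulated data. Named were the 25 genes with the largest lower bound against all other nuclei, 15 each way against cDC2, 12 each way between the days, 12 regions and the genes of the marker lists, with genes of neighbour groups chosen after their values were seen. The members of the set and the lists were chosen with earlier results of these data known.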

Additional observations from a re-analysis of the deposited data

Results flagged for a closer look

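Nuclei under the minimum of 1000 UMIs were left out of every comparison above, and a few of them met the rest of the rule. They were 10 of 1978 nuclei at D0 (0.506%, 0.243 to 0.928) and 4 of 1240 at D5 (0.323%, 0.0880 to 0.824), where a count of 0 would have allowed up to 0.152% and 0.242%. They are listed because these nuclei were used nowhere else and the shares lie above that limit, which is not an expected level and which the interval at D5 covers. The medians of these 10 and 4 nuclei were 831.5 and 899.5 UMIs.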

How the results depend on the processing

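No paired analysis was possible because each day is 1 library, and for the same reason no replicate could be left out. The mitochondrial limit of 10%, which removed no selected nucleus, and an overlap of at least 50% of the shorter peak changed no summary value beyond its limit. A rule sum of 8 or more gave shares of 1.53% at D0 and 1.55% at D5 and 15.1% Ccr7+ DC by ATAC at D5, and exclusion sums of 0 gave 2.04%, 2.43% and 14.9%. Without nuclei at a Scrublet score of 0.2 or higher the share at D0 was 3.58%, and 151 genes were lower than in cDC2 at D5. Thinning gave shares of 1.61% and 0.706%. TMM scaling gave 329 higher and 394 lower genes against cDC2 at D0 and 118 lower at D5, and 738 higher and 832 lower between the days. Without the minimum of 20 UMIs, 11471 and 8550 genes were 2-fold higher than in the others and 1190 and 660 lower, mostly genes with few UMIs. A doubled gate minimum left 208 and 1438 cDC2 reference nuclei, with 307 and 122 genes lower against them and 6.17% Ccr7+ DC at D0 and 87.1% cDC2 at D5 by ATAC. With selected nuclei held to the limit of 1 UMI of the Ccr7+ DC gate, also added after seeing the data, 328 genes were higher than in cDC2 at D5. Likeness to cDC2 was 0.909 and 0.958 with a pseudocount of 1 CPM and 0.898 and 0.951 by Spearman. The nearest-nuclei vote gave cDC2 65.8% and 71.6% and Ccr7+ DC 18.3% and 22.0%, and equal class sizes, added after seeing the data, 49.6% and 69.5%, and 10.8% and 20.1%. Of 30 neighbours 38.7% and 22.5% were selected. Windows of 10 kb gave 7 higher and 18 lower list genes at D0. Ratios of named genes were recomputed under 7 alternatives (rule sum, exclusions, doublet score, mitochondrial limit, TMM and the limits on the endothelial and Ccr7+ DC gates). Of these ratios, 710 moved within their limit and 153 moved further. Those within include all 134 under the mitochondrial limit, which removed no selected nucleus and could hardly move them. Further moves were 49 with a rule sum of 8 or more (85 within), 45 without high doublet scores (89 within) and 21 under the Ccr7+ DC gate limit (39 within). Ptprb over cDC2 at D0 turned to -0.41 without nuclei at the endothelial gate, also added after seeing the data. Ptprb is a gene of that gate, so a fall was set by the choice. The causes of these shifts were not tested.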
